A study of Homo sapiens with 9 samples.

Results

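The subunits of the nuclear RNA polymerases I, II and III were followed on arrays of HEK293 cells, an established human embryonic kidney line, after transfection with small interfering RNAs (siRNAs). Members were the probe sets annotated with a single gene symbol of the POLR1, POLR2 or POLR3 families, and 23 of the 22011 probe sets in the table met this rule, each for a different gene. Of these, 5 encode subunits found only in RNA polymerase II and 5 the subunits shared by all 3 enzymes. The rest are 4 of RNA polymerase I, 2 shared by RNA polymerases I and III, and 7 of RNA polymerase III. Another 7 subunit genes (POLR1G, POLR1H, POLR2I, POLR2J, POLR2M, POLR3C and POLR3F) lay only on probe sets annotated with several genes and were left out.

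The study had 3 groups of 3 arrays, taken 48 h after transfection from independent experiments. Cells received an siRNA against DBC1 (siDBC1), an siRNA against ZNF326, also called ZIRD (siZNF326), or a control siRNA (siCTR). All cells were of the same unmodified line in the same serum-containing medium, and each siRNA was transfected transiently. The gene of DBC1 is CCAR2, and DBC1 and ZNF326 are known as parts of the DBIRD complex, which binds RNA polymerase II and is studied for its effect on elongation and splicing. The comparisons therefore show whether transcripts of the polymerase itself differed when either part was targeted.

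RNA polymerase I makes the large ribosomal RNA precursor, RNA polymerase II makes messenger RNAs and most small nuclear RNAs, and RNA polymerase III makes transfer RNAs, 5S ribosomal RNA and other short RNAs. Each enzyme is built around its own pair of large catalytic subunits. Smaller subunits complete the core, among them POLR2E, POLR2F, POLR2H, POLR2K and POLR2L, which all the enzymes share, and POLR1C and POLR1D, which RNA polymerases I and III share in the place that POLR2C and POLR2J take in RNA polymerase II.

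Expression was read as the deposited RMA values, in which the authors combined the probes of a transcript into 1 log2 value per array, so a difference of 1 unit is a doubling. Differences were tested with limma across all 22011 probe sets, and a call is a Benjamini-Hochberg adjusted p below 0.05 over all of them. CCAR2 checked the siDBC1 label: it stood at 6.56 ± 0.078 in siDBC1 and 7.72 ± 0.096 in siCTR (SD, n = 3 each), a change of -1.16 (limma adjusted p = 0.0116). The size stayed between -1.21 and -1.11 when single arrays were left out, but the call was lost in 4 of 9 omissions, without siDBC1 replicate 1 (adjusted p = 0.122), siDBC1 replicate 2 (0.0544), siZNF326 replicate 3 (0.0629) or siCTR replicate 2 (0.0843), and also with only the 2 groups compared (0.253) and with a replicate block (0.103). ZNF326 did not check the other label, since it stood at 5.83 ± 0.28 in siZNF326 and 5.55 ± 0.27 in siCTR (SD, n = 3 each; change 0.28, limma adjusted p = 0.851), so the group is called the arrays labelled siZNF326. Arrays siDBC1 replicates 2 and 3 and siZNF326 replicate 1 stood apart, with SDs of 0.327, 0.343 and 0.270 over all probe sets around their group means, against 0.189 to 0.222 in the other arrays. Of 6 epithelial and neuronal genes known from HEK293 cells, 5 (KRT8, KRT18, NEFL, INA and PAX2) were above the array median on all 9 arrays, while 4 of 7 markers of other cell types (PTPRC, CD3E, ALB and PECAM1) were below the lower quartile on all 9. COL1A1, a fibroblast collagen, was above the median on all 9. The marker lists had median changes of 0.15 and 0.046 in siDBC1 against siCTR and of 0.26 and 0.0052 in the arrays labelled siZNF326 against siCTR, and their part in the results below was not tested. The neuronal intermediate filament genes of the first list stood highest in the arrays labelled siZNF326, with all 3 arrays above siCTR but no call: NEFM by 1.72 (limma adjusted p = 0.158), INA by 0.95 (0.220) and NEFL by 0.44 (0.323). All 3 arrays lay above siCTR for 3 of the 6 genes of that list, beside 12.9% of all probe sets. All 23 subunits were above the array median on every array, and levels of different probe sets are not compared because each has its own probes.

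POLR2L was the subunit called higher than siCTR in both siRNA groups, though most single omissions lost these calls, as given below. The letters upstream of its start site are shown beside those of POLR2A, the largest subunit of RNA polymerase II. POLR2A was the other subunit whose arrays did not overlap siCTR in either group. Both stretches are the 250 bases before the annotated start in RefSeq on GRCh38.p14, read in the direction of the gene, and capitals mark GC boxes (GGGCGG, searched on both strands), the motif bound by SP1. The POLR2L stretch is chr11:842530-842779 on the minus strand and the POLR2A stretch is chr17:7484116-7484365 on the plus strand.
POLR2L: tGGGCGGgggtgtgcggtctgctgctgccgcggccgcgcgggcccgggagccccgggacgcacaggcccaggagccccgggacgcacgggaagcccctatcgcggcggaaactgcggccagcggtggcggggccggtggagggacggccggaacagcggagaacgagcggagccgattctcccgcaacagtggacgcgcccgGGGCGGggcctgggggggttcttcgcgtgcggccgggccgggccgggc
POLR2A: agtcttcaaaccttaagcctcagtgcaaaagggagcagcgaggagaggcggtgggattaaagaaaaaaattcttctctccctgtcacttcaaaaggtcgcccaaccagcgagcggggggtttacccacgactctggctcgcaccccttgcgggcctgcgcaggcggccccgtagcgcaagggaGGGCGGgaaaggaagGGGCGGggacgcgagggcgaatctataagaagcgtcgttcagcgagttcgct
GC boxes began at bases -249 and -48 in POLR2L and at bases -67 and -52 in POLR2A, counted back from the start site. A RefSeq promoter window of 300 bases, 50 of them after the start, was found for 18 of the 23 subunits. A GC box was in 13 of these 18 windows and in 56.3% of 22199 windows of protein-coding genes (45.0% of all 35116). None of the 18 windows held a TATA box (TATAAA), which 9.47% of the protein-coding windows held, and none held the cyclic AMP response element (TGACGTCA, 2.26%) or the ATF4 motif TGATGNAAN (2.69%). The ETS motif CCGGAAGT was in 4 of the 18 windows (POLR1C, POLR2C, POLR2F and POLR3A) and in 5.34% of protein-coding windows. These matches describe the letters and carry no statement about which factor binds.

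POLR2L, also known as RPB10, is a small zinc-binding subunit of the core of all 3 enzymes. It read 7.82, 7.91 and 7.92 in siDBC1, 7.54, 7.64 and 7.58 in the arrays labelled siZNF326, and 6.89, 6.76 and 7.01 in siCTR (log2 level, replicates 1 to 3). No array of either siRNA group overlapped with siCTR, and the siDBC1 arrays lay above the arrays labelled siZNF326 as well. In siDBC1 the transcript averaged 7.88 ± 0.058, against 6.89 ± 0.13 in siCTR (SD, n = 3 each). This was a rise of 1.0 (SE 0.086, 95% interval 0.80 to 1.19) on the log2 scale or 1.99-fold, with a limma adjusted p of 0.0199. In the arrays labelled siZNF326 it averaged 7.59 ± 0.055 (SD, n = 3), a rise over siCTR of 0.70 (SE 0.086, 95% interval 0.50 to 0.90) or 1.62-fold, with a limma adjusted p of 0.0376. Both rises are measured against the same siCTR arrays.

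**Figure D1:**
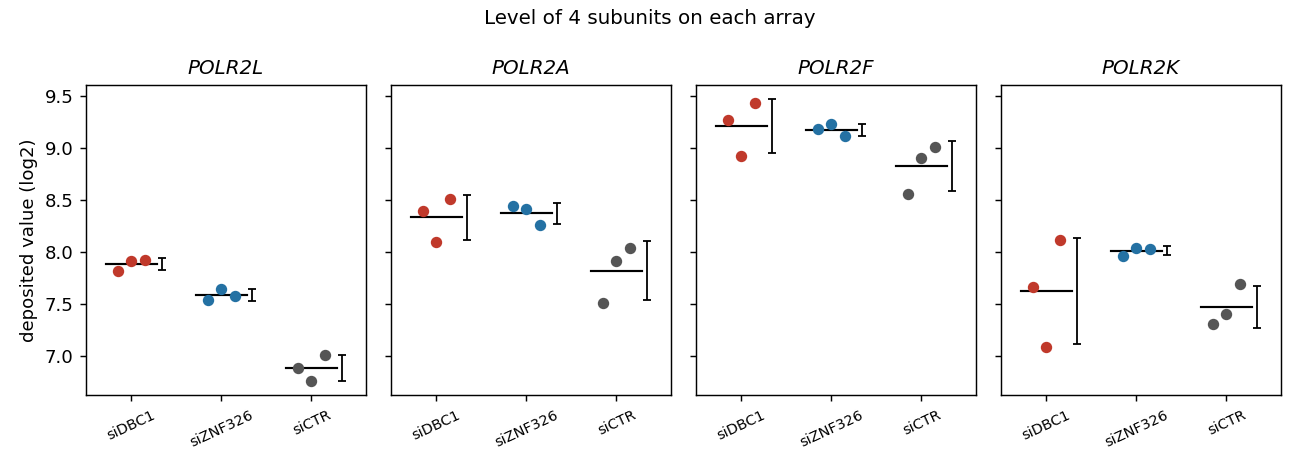
Deposited log2 value of POLR2L, POLR2A, POLR2F and POLR2K (y axis) on each array of siDBC1, siZNF326 and siCTR (x axis), where points are replicates 1 to 3 from left to right, lines are group means and bars are 1 SD, n = 3. POLR2L is the panel in which both siRNA groups lie clear of siCTR with little spread, 7.82 to 7.92 and 7.54 to 7.64 against 6.76 to 7.01; levels of different genes are not comparable.

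POLR2L was 1 of 23 subunits called in siDBC1 against siCTR, where 0.0363% of all probe sets were called, and 1 of 23 in the arrays labelled siZNF326 against siCTR, where 0.15% were. The size of its rise was steady when single arrays were left out, at 0.93 to 1.06 in siDBC1 and 0.64 to 0.76 in the group labelled siZNF326, but the call was not: it was lost in 9 of 9 omissions in siDBC1 (adjusted p from 0.0598 to 0.131) and in 8 of 9 in the arrays labelled siZNF326, where it stayed only without siDBC1 replicate 2 (adjusted p = 0.0409, the others up to 0.184). Quantile normalization ended both calls (changes 0.98 and 0.55, adjusted p = 0.065 and 0.229), and centring each array on its median ended that of the arrays labelled siZNF326 (0.61, adjusted p = 0.0849). Both calls also ended with only the 2 groups compared (adjusted p = 0.286 in siDBC1 and 0.0917 in the arrays labelled siZNF326) and with a replicate block (0.103 and 0.150), which leave the sizes as they were. In the same order of groups, both stayed with low probe sets left out (limma adjusted p = 0.0117 and 0.0237). They also stayed with an intensity trend (0.0312 and 0.0474) and with array weights (changes 0.96 and 0.73, adjusted p = 0.00235 and 0.00638).

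The arrays labelled siZNF326 read below siDBC1 for POLR2L by a difference of -0.30 (95% interval -0.50 to -0.098), lower in all 3 arrays. This did not pass (limma adjusted p = 0.608), and 0 of 23 subunits were called between these groups, where 0.00909% of probe sets were. At an unadjusted p below 0.05 there were 2 subunits, POLR2L and POLR3GL, beside 7.31% of all probe sets.

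Genes next to POLR2L on chromosome 11, looked up after its values were seen, showed no comparable difference. Of the 4 protein-coding neighbours on each side in RefSeq, 6 had a probe set of their own: PNPLA2, CRACR2B and CD151 on one side and TSPAN4, CHID1 and AP2A2 on the other. Their changes lay between -0.038 (PNPLA2) and 0.17 (CHID1) in siDBC1, and between -0.095 (PNPLA2) and 0.19 (AP2A2) in the arrays labelled siZNF326, and all of them overlapped with siCTR. The lowest limma adjusted p among them was 0.892 in siDBC1 and 0.722 in the arrays labelled siZNF326.

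Among the 5 subunits found only in RNA polymerase II, POLR2A stood furthest from siCTR in both groups without passing the test. POLR2A encodes the catalytic subunit that carries the carboxy-terminal heptad repeats, the platform for capping, splicing and termination factors. It read 8.39, 8.10 and 8.51 in siDBC1, 8.44, 8.41 and 8.26 in the arrays labelled siZNF326, and 7.51, 7.91 and 8.04 in siCTR. All arrays of both siRNA groups were above all 3 siCTR arrays, though siDBC1 replicate 2 and siCTR replicate 3 were only slightly apart. The difference was 0.51 (95% interval 0.13 to 0.89, limma adjusted p = 0.649) in siDBC1 and 0.55 (95% interval 0.17 to 0.93, limma adjusted p = 0.367) in the arrays labelled siZNF326. These 2 groups themselves differed by 0.037 (95% interval -0.34 to 0.42).

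POLR2B, the other large subunit, which closes the active centre with POLR2A, read 8.56, 8.07 and 9.12 in siDBC1, 9.09, 8.55 and 8.94 in the arrays labelled siZNF326, and 8.49, 8.33 and 8.52 in siCTR. Its siDBC1 arrays lay on both sides of siCTR, while the arrays labelled siZNF326 were all above siCTR (difference 0.41, limma adjusted p = 0.686). POLR2D and POLR2G form the stalk of the enzyme, and whether their changes differ from each other was not tested. POLR2D was the lowest of these subunits, with differences of -0.26 in siDBC1 (limma adjusted p = 0.956) and -0.21 in the arrays labelled siZNF326 (limma adjusted p = 0.783). POLR2G stood at 0.21 (limma adjusted p = 0.934) and 0.31 (limma adjusted p = 0.587). POLR2C, which anchors assembly of the enzyme, stood at 0.026 and 0.14, with arrays that overlapped siCTR in both groups.

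In 3 of 4 cases the other shared subunits had all arrays labelled siZNF326 above siCTR, beside 12.9% of all probe sets. None passed the test, and subunits moved together from array to array. POLR2K, also known as RPB12, read 7.67, 7.09 and 8.11 in siDBC1, 7.96, 8.04 and 8.03 in the arrays labelled siZNF326, and 7.31, 7.40 and 7.69 in siCTR. It was wide in siDBC1 and tight in the arrays labelled siZNF326. Its difference from siCTR was 0.16 (95% interval -0.39 to 0.71, limma adjusted p = 0.987) in siDBC1 and 0.54 (95% interval -0.0071 to 1.09, limma adjusted p = 0.581) in the arrays labelled siZNF326. POLR2F, also known as RPB6, which helps hold the clamp of the enzyme, read 9.27, 8.92 and 9.44 in siDBC1, 9.18, 9.23 and 9.12 in the arrays labelled siZNF326, and 8.56, 8.91 and 9.01 in siCTR. Its differences were 0.38 (limma adjusted p = 0.793) and 0.35 (limma adjusted p = 0.596), and siDBC1 replicate 2 fell within the siCTR range. POLR2H, also known as RPB8, read 8.869, 8.575 and 9.134 in siDBC1, 9.082, 8.989 and 9.46 in the arrays labelled siZNF326, and 8.767, 8.838 and 8.912 in siCTR. It stood at 0.020 in siDBC1 and 0.34 in the arrays labelled siZNF326 (limma adjusted p = 0.630). Between these 2 groups it differed by 0.32 (limma adjusted p = 0.735), with overlap. POLR2E, also known as RPB5, which lies in the jaw that grips the incoming DNA, stood at -0.013 (95% interval -0.21 to 0.18) and -0.055 (95% interval -0.25 to 0.14), the narrowest intervals of the 23 subunits.

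**Figure D2:**
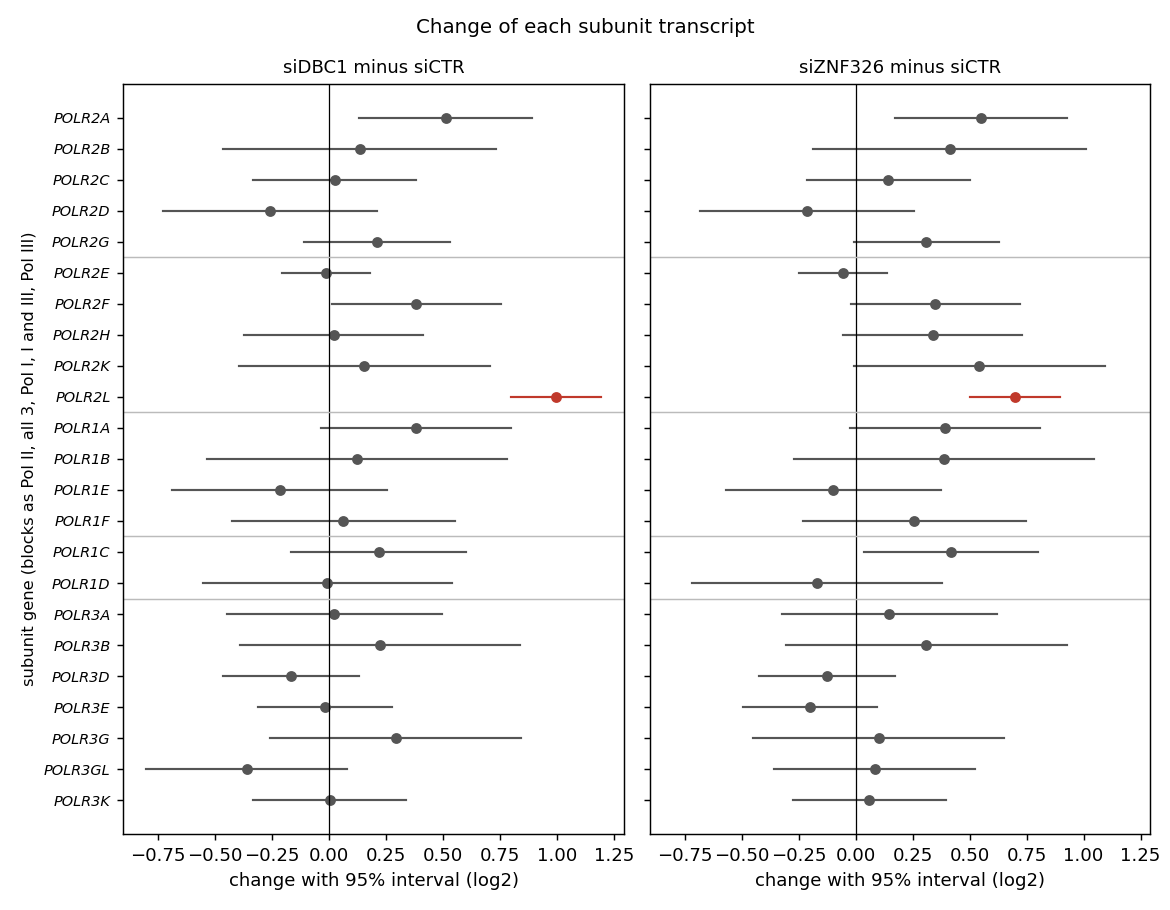
Difference from siCTR (x axis, log2, points) with its 95% limma interval (lines) for each of the 23 subunits (y axis), siDBC1 on the left and siZNF326 on the right, in blocks of RNA polymerase II, shared by all 3, RNA polymerase I, shared by I and III, and RNA polymerase III. Red marks an adjusted p below 0.05, which POLR2L has in both panels (1.0 and 0.70); the intervals of most other subunits include 0.

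In RNA polymerase I the catalytic subunits stood above siCTR on average and the accessory subunit POLR1E below it, with no call. POLR1A, the largest catalytic subunit, read 7.37, 7.03 and 7.62 in siDBC1, 7.45, 7.23 and 7.38 in the arrays labelled siZNF326, and 6.72, 6.92 and 7.23 in siCTR. Only the lowest siDBC1 array overlapped with the control range, and the lowest array labelled siZNF326 equalled the highest control. The differences were 0.38 (95% interval -0.037 to 0.80, limma adjusted p = 0.855) and 0.39 (95% interval -0.023 to 0.81, limma adjusted p = 0.596). POLR1B, its catalytic partner, stood at 0.12 in siDBC1, where its arrays ranged over 1.16, and at 0.39 in the arrays labelled siZNF326. POLR1F, the stalk subunit that contacts the initiation factor RRN3, stood at 0.063 and 0.26. POLR1E, known as PAF53 and paired with POLR1G, stood at -0.22 and -0.097.

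Neither member of the pair shared by RNA polymerases I and III passed the test. POLR1C read 8.20, 7.80 and 8.40 in siDBC1, 8.26, 8.21 and 8.53 in the arrays labelled siZNF326, and 7.91, 7.80 and 8.04 in siCTR, so that the arrays labelled siZNF326 were all above siCTR (difference 0.42, 95% interval 0.035 to 0.80, limma adjusted p = 0.532). POLR1D, its partner in the heterodimer, stood at -0.0066 in siDBC1 and -0.17 in the arrays labelled siZNF326 (95% interval -0.72 to 0.38, limma adjusted p = 0.851). Whether the members of the pair differ from each other was not tested.

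RNA polymerase III had no subunit among its 7 whose arrays were clear of siCTR in either group, and neither had RNA polymerase I. Among all probe sets, all arrays lay above siCTR in 5.18% (siDBC1) and 12.9% (labelled siZNF326). They lay below it in 3.66% and 5.27%. Its catalytic subunits POLR3A and POLR3B stood at 0.023 and 0.22 in siDBC1 and at 0.15 and 0.31 in the arrays labelled siZNF326. POLR3D and POLR3E, a pair that resembles the initiation factor TFIIF, were below siCTR on average in both groups, POLR3D by differences of -0.17 and -0.13 and POLR3E by -0.017 and -0.20. POLR3K, which acts in RNA cleavage and termination, stood at 0.0041 and 0.060. Under quantile normalization POLR3A, POLR3G, POLR3GL and POLR3K turned to between -0.050 and -0.0073 in the arrays labelled siZNF326. All 7 were uncalled, with lowest limma adjusted p of 0.896 in siDBC1 and 0.691 in the arrays labelled siZNF326.

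POLR3G and POLR3GL are paralogs that take the same place in alternative forms of RNA polymerase III, the POLR3G form being known from stem and tumour cells. POLR3GL read 6.12, 5.82 and 6.53 in siDBC1, 6.82, 6.52 and 6.46 in the arrays labelled siZNF326, and 6.47, 6.38 and 6.69 in siCTR. It was the lowest subunit of siDBC1 against siCTR, with a difference of -0.36 (95% interval -0.80 to 0.081, limma adjusted p = 0.896), and stood at 0.084 in the arrays labelled siZNF326. Between the arrays labelled siZNF326 and siDBC1 it differed by 0.44 (95% interval 0.0029 to 0.89, limma adjusted p = 0.682), with 1 siDBC1 array above the lowest of the other group. POLR3G read 6.96, 6.87 and 6.82 in siDBC1, 6.57, 6.53 and 6.98 in the arrays labelled siZNF326, and 6.03, 6.80 and 6.94 in siCTR. Its differences of 0.29 and 0.10 rest on siCTR replicate 1, the lowest of its 9 arrays, without which they were 0.012 and -0.18.

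Set side by side, the enzymes had median differences in siDBC1 of 0.13 for RNA polymerase II, 0.16 for the shared subunits, 0.093 for RNA polymerase I and 0.0041 for RNA polymerase III, beside 0.014 for all probe sets. In the arrays labelled siZNF326 the medians were 0.31, 0.35, 0.32 and 0.084 in the same order, beside 0.032 for all probe sets. With the low probe sets left out, those whose mean level was below the middle, this background was 0.090, and 0.015 in siDBC1. All 23 subunits were above the array medians, and RNA polymerase III at 0.084 did not exceed the 0.090. RNA polymerase III was nearest to siCTR in both groups, and in the arrays labelled siZNF326 it stayed so in every alternative run that can alter these medians. Runs that changed only the test or the probe sets tested, or left out a siDBC1 array, cannot alter them. In siDBC1 RNA polymerase III was not nearest without siDBC1 replicate 3, where the medians in the same order were -0.094, -0.052, -0.14 and -0.10. Nor was it nearest without siCTR replicate 1, where they were 0.083, 0.075, 0.061 and -0.080. Without siDBC1 replicate 2 they were 0.25, 0.42, 0.36 and 0.091. Over all 23 subunits the median was 0.063 in siDBC1, with 16 above siCTR, and 0.26 in the arrays labelled siZNF326, with 17 above it; among all probe sets 53.8% and 56.6% were above siCTR. Centring the arrays left medians of 0.048 and 0.17 with 15 and 15 subunits above siCTR, and quantile normalization 0.038 and 0.11 with 16 and 13.

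All 3 arrays of a group lay above siCTR for 2 of 23 subunits in siDBC1 (POLR2A and POLR2L), beside 5.18% of all probe sets. In the arrays labelled siZNF326 this held for 7 of 23 (POLR1C, POLR2A, POLR2B, POLR2F, POLR2H, POLR2K and POLR2L), beside 12.9%. They were 4 of the 5 shared subunits, 2 of the 5 subunits of RNA polymerase II, 1 of the 2 shared by RNA polymerases I and III, and none of the 4 and 7 of RNA polymerases I and III. No subunit had all its arrays below siCTR in either group, where 3.66% and 5.27% of probe sets did. Limma called 1 subunit in each group, and at an unadjusted p below 0.05 there were 3 in siDBC1 (POLR2A, POLR2F and POLR2L) and 3 in the arrays labelled siZNF326 (POLR1C, POLR2A and POLR2L), beside 6.18% and 8.65% of all probe sets. Subunits moved together from array to array, so these counts are not of independent genes.

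**Figure D3:**
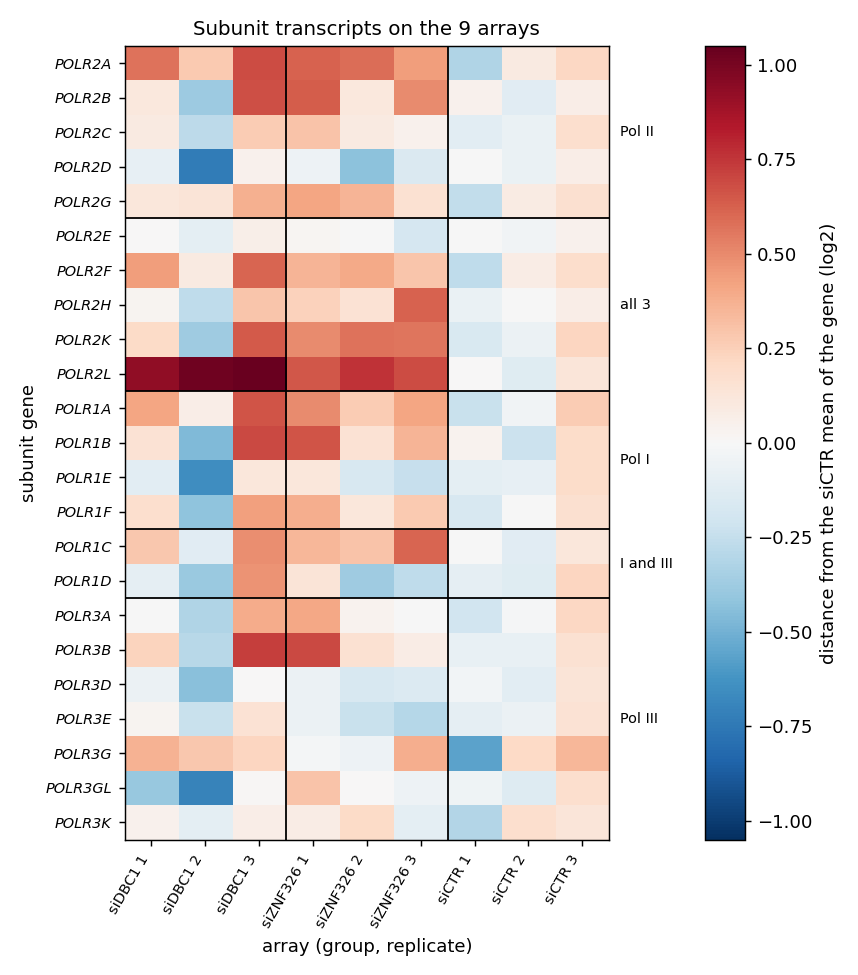
Distance of each array (x axis, siDBC1, siZNF326 and siCTR, replicates 1 to 3) from the siCTR mean of the same gene (colour, log2, red higher and blue lower) for the 23 subunits (y axis) in blocks by enzyme. POLR2L is dark red on all siDBC1 arrays, while most other subunits are blue in siDBC1 replicate 2 and red in siDBC1 replicate 3.

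That common movement was largest in siDBC1. Replicate 2 was the lowest of the 3 siDBC1 arrays for 20 of 23 subunits (54.8% of all probe sets), and replicate 3 the highest for 22 of 23 (53.7%). The median distance from replicate 2 to replicate 3 was 0.59 over the subunits and 0.19 over all probe sets. It reached 1.16 in POLR1B, 1.06 in POLR2B, 1.02 in POLR2K and 1.01 in POLR3B, but was 0.012 in POLR2L, and POLR3G was the exception that ran the other way (-0.053). In siCTR, replicate 3 was the highest array for 22 of 23 subunits (54.1% of all probe sets), and among the arrays labelled siZNF326 replicate 1 was for 16 of 23 (54.1%). Medians of whole arrays ran the same way. They were lowest of their group in siDBC1 replicate 2 (5.58). They were highest in siDBC1 replicate 3 (5.886), siCTR replicate 3 (5.775) and siZNF326 replicate 1 (5.901). The part of this shift in the common movement was not tested.

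**Figure D4:**
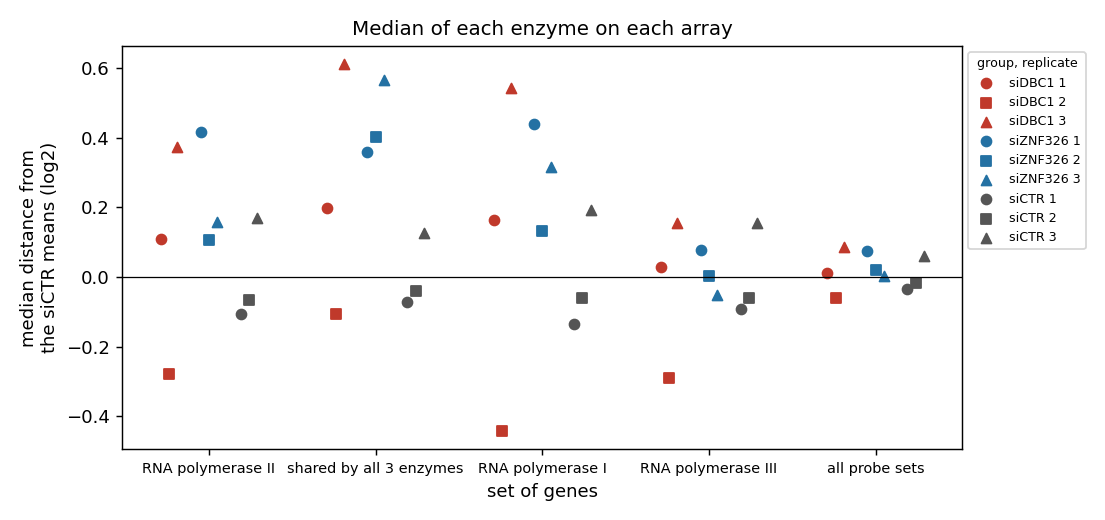
Median distance from the siCTR means (y axis, log2) over the subunits of each enzyme, the shared subunits and all probe sets (x axis), with 1 point per array of siDBC1, siZNF326 and siCTR (colours) and replicates as shapes. Within siDBC1 the subunits of RNA polymerase I run from -0.44 in replicate 2 to 0.54 in replicate 3, wider than the distance between the groups.

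The medians of the enzymes on single arrays show the same. For RNA polymerase II they were 0.11, -0.28 and 0.37 in siDBC1, 0.42, 0.11 and 0.16 in the arrays labelled siZNF326, and -0.11, -0.066 and 0.17 in siCTR (replicates 1 to 3). For the shared subunits they were 0.20, -0.11 and 0.61, then 0.36, 0.40 and 0.57, and -0.072, -0.039 and 0.13 in the same order of groups. In the arrays labelled siZNF326 the shared subunits were the one set of these 4 clear of siCTR, and in siDBC1 none was. For RNA polymerase I they were 0.16, -0.44 and 0.54 in siDBC1, 0.44, 0.13 and 0.32 in the arrays labelled siZNF326, and -0.14, -0.060 and 0.19 in siCTR. For RNA polymerase III they were 0.028, -0.29 and 0.15, then 0.078, 0.0035 and -0.052, and -0.092, -0.060 and 0.16. Because of this spread the median of all subunits in siDBC1 was 0.25 without siDBC1 replicate 2 (20 of 23 above siCTR), -0.094 without siDBC1 replicate 3 (7 of 23), -0.015 without siCTR replicate 1 (11 of 23) and 0.15 without siCTR replicate 3 (19 of 23). In the arrays labelled siZNF326 it stayed between 0.16, without siZNF326 replicate 1, and 0.34, without siCTR replicate 3. RNA comes from whole cultures, so fewer cells with a transcript and less of it per cell cannot be told apart.

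Genes that work with the polymerases were read from lists of initiation factors, assembly factors and relatives, 59 genes with a probe set of their own out of 79 listed. Limma called 0 of the 59 in siDBC1 and 0 in the arrays labelled siZNF326, with 3 and 7 at an unadjusted p below 0.05, beside 0.0363% and 0.15% of all probe sets called and 6.18% and 8.65% at the unadjusted threshold. General factors of RNA polymerase II had a median difference of -0.00071 in siDBC1, with 12 of 24 above siCTR, and of 0.31 in the arrays labelled siZNF326, with 21 of 24 above it, beside 53.8% and 56.6% of all probe sets. All 3 arrays lay above siCTR for 1 of 24 in siDBC1 and 5 of 24 in the arrays labelled siZNF326, beside 5.18% and 12.9%. GTF2B, the factor TFIIB that places the polymerase at the start site, read 6.92, 6.92 and 6.48 in the arrays labelled siZNF326 and 6.07, 5.77 and 6.27 in siCTR (difference 0.74, limma adjusted p = 0.448). TAF11, a subunit of the promoter-binding factor TFIID, read 7.46, 7.14 and 7.39 in the arrays labelled siZNF326 and 6.57, 6.65 and 6.57 in siCTR (difference 0.73, limma adjusted p = 0.446). Both genes are among these 5.

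Factors of RNA polymerase III had medians of 0.028 in siDBC1 and 0.046 in the arrays labelled siZNF326, each with 11 of 16 genes above siCTR, and those of RNA polymerase I 0.28 and 0.35 with 5 of 5. In the list for RNA polymerase I CAVIN1, also known as PTRF, named for a role in transcript release and better known from caveolae, had the smallest p, with differences of 0.32 (limma adjusted p = 0.491) and 0.38 (limma adjusted p = 0.223). Factors that assemble the polymerases had medians of 0.046 and 0.099, with 8 and 11 of 14 genes above siCTR. PIH1D1, a subunit of the R2TP chaperone complex that helps assemble RNA polymerase II, lay below siCTR in both groups, at 8.05, 7.70 and 8.09 in siDBC1 and 8.05, 7.85 and 7.82 in the arrays labelled siZNF326, against 8.26, 8.31 and 8.48 in siCTR. No array overlapped with siCTR, a pattern that 3.66% and 5.27% of all probe sets showed in the same direction, and the differences were -0.40 (limma adjusted p = 0.648) and -0.44 (limma adjusted p = 0.351). RUVBL2, an ATPase of the same complex, stood at -0.27 in the arrays labelled siZNF326 (limma adjusted p = 0.388), below siCTR on all 3 arrays. PFDN6 of the same list went the other way. It stood at 0.30 in siDBC1 (limma adjusted p = 0.735) and 0.17 in the arrays labelled siZNF326 (limma adjusted p = 0.695), with overlap in both. POLRMT, the single-subunit polymerase of mitochondria, stood at 0.063 and -0.0085.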

How the data were processed

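Total RNA of 9 HEK293 cultures was hybridised to Affymetrix arrays after removal of ribosomal RNA and whole-transcript labelling, per the labels' protocols. The deposited log2 values were made by the authors with RMA (build hg18), per the submitters' processing notes; the sources used here give neither software version nor filters, and the log base follows from RMA and the range of the values, 0.333 to 13.4. Identical values on at least 2 arrays were found in 41.45% of probe sets and in 7 of the 23 subunits. Their effect on the spread and the tests was not tested. No detection values or scanner files were used, and array number, not a read depth, limits the precision.

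Groups came from sample titles. Gene symbols came from the platform annotation. A linear model of the 3 groups was fitted to all 22011 probe sets with limma 3.58.1 in R 4.3.3 (lmFit, eBayes) without a filter or rescaling. It was also run on simulated data with planted changes. Those data mixed the deviations from group means at random over arrays, so they cannot show the effect of the links between arrays given below. Enzyme medians used 1 probe set per gene and carry no test. Per-array values were given for the called subunits, the 3 smallest p per comparison, POLR2A, POLR2L and others with extreme changes in their enzyme; from other lists the 3 smallest p per comparison were eligible. The neighbours of POLR2L and the per-array spread were chosen later. Members and lists were chosen with earlier results of these data known. Replicate numbers were not treated as pairs: deviations from group means correlated between -0.296 and 0.396 for arrays of the same number. For arrays of different number the range was wider. It ran from -0.567 (siDBC1 replicate 2 with siZNF326 replicate 1) to 0.610 (siDBC1 replicate 3 with siZNF326 replicate 1). The model takes no account of such links between arrays. Promoter letters and gene neighbours came from RefSeq on GRCh38.p14, and no coordinates of the array's build were used.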

Additional observations from a re-analysis of the deposited data

How the results depend on the processing

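Calls depended on the processing, and so did some sizes. Runs with only the 2 groups, a replicate block, an intensity trend or low probe sets left out cannot alter sizes. Quantile normalization moved the median of the 23 subunits in the arrays labelled siZNF326 against siCTR from 0.26 to 0.11. Over all probe sets, limma called 8 in siDBC1 against siCTR, 33 in the arrays labelled siZNF326 against siCTR and 2 between siZNF326 and siDBC1. In this order the counts were 69, 196 and 28 after quantile normalization, 46, 119 and 9 with arrays centred, 0, 5 and 0 with only the 2 groups compared, 0, 1 and 0 with a replicate block, and 606, 344 and 603 with array weights. An intensity trend gave 4 in siDBC1, and leaving out low probe sets gave 68 in the arrays labelled siZNF326. At an unadjusted p below 0.05 the counts were 1100, 2844 and 1118 with only the 2 groups and 1360, 2007 and 1769 with the block. Subunits called fell to 0 in both comparisons with siCTR, against 1 in each, after quantile normalization, with only the 2 groups and with the replicate block, and to 0 for the arrays labelled siZNF326 with arrays centred. Single omissions gave 0 to 4, 1 to 64 and 0 to 1 calls over all probe sets, 0 to 0 subunits in siDBC1 and 0 to 1 in the arrays labelled siZNF326. The median of RNA polymerase III in the arrays labelled siZNF326 ran from -0.092 to 0.17 in these omissions. In siDBC1 the omissions spanned 0 for every enzyme, with medians of -0.14 to 0.36 for RNA polymerase I, -0.094 to 0.25 for RNA polymerase II, -0.052 to 0.42 for the shared subunits and -0.10 to 0.091 for RNA polymerase III, lowest without siDBC1 replicate 3 and highest without siDBC1 replicate 2. Counting POLR1C and POLR1D with both enzymes left the medians of RNA polymerases I and III against siCTR as they were, and since each gene had 1 probe set, using all probe sets gives the same values. Array weights were estimated gene by gene.

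Directions turned in uncalled subunits. Quantile normalization gave, for the arrays labelled siZNF326 against siCTR, -0.050 for POLR3GL, -0.018 for POLR3G, -0.0073 for POLR3A and -0.050 for POLR3K, and against siDBC1 -0.13 for POLR1A, -0.095 for POLR2D, -0.097 for POLR3D, -0.012 for POLR1E and POLR3A, -0.022 for POLR2G, -0.020 for POLR3B and POLR2C, -0.058 for POLR3K and -0.088 for POLR2A. Centring gave -0.010 for POLR3K in siDBC1, -0.0077 for POLR3GL and -0.032 for POLR3K in the arrays labelled siZNF326, and against siDBC1 -0.064 for POLR1A, -0.032 for POLR2D, -0.036 for POLR3D, -0.021 for POLR3K and -0.040 for POLR2A. Array weights gave 0.044 for POLR3E and 0.0086 for POLR2E in siDBC1, and between siZNF326 and siDBC1 -0.036 for POLR1A, -0.13 for POLR2D, -0.068 for POLR3D, -0.051 for POLR1E, -0.059 for POLR3B, -0.016 for POLR3K and -0.054 for POLR2A. Single omissions spanned 0 in siDBC1 against siCTR for POLR1B (-0.16 to 0.42), POLR2H (-0.12 to 0.16), POLR2B (-0.14 to 0.39), POLR1F (-0.12 to 0.30), POLR2K (-0.089 to 0.42), POLR1E (-0.38 to 0.0021), POLR3A (-0.16 to 0.19), POLR3B (-0.027 to 0.48), POLR1D (-0.24 to 0.19), POLR3E (-0.10 to 0.091), POLR2C (-0.094 to 0.18), POLR3K (-0.15 to 0.092) and POLR2E (-0.052 to 0.034). In the arrays labelled siZNF326 against siCTR they did for POLR3GL (-0.024 to 0.17), POLR3G (-0.18 to 0.28), POLR3K (-0.092 to 0.15) and POLR2E (-0.091 to 0.0064). Between siZNF326 and siDBC1 they did for POLR1B (-0.031 to 0.55), POLR1A (-0.14 to 0.15), POLR2D (-0.19 to 0.20), POLR1F (-0.046 to 0.38), POLR3D (-0.095 to 0.12), POLR1E (-0.099 to 0.28), POLR3A (-0.045 to 0.31), POLR3B (-0.17 to 0.34), POLR1D (-0.35 to 0.075), POLR2C (-0.034 to 0.24), POLR3K (-0.015 to 0.14), POLR2A (-0.082 to 0.13), POLR2E (-0.089 to 0.019) and POLR2F (-0.18 to 0.081). The cause was not tested.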
